A study of Mus musculus with 6 samples.

Results

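Natural killer (NK) and innate lymphoid cells of the mouse mitral valve were taken as the barcodes that carried RNA of their receptors and regulators and none of the T cell receptor complex. A member had at least 2 unique molecular identifiers (UMIs, counted molecules) summed over Ncr1, Klrb1c, Klre1, Nkg7, Gata3, Il7r and Il1rl1, and at least 1 over the leukocyte genes Ptprc, Il2rb and Cd52. It had none of Cd3e, Cd3d, Cd3g, Trac or Cd79a and at most 1 UMI of the myeloid genes Lyz2 and C1qa. Collagen and decorin RNA (Dcn, Col1a1, Col1a2) was under 0.5% of its UMIs. Barcodes with 300 or more genes and mitochondrial RNA no higher than 10% were called quality barcodes, and 153 of 53526 were members, or 0.286%. The members were chosen by these counts, so the levels of those genes are given only as a description.

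NK cells are lymphocytes without rearranged antigen receptors that kill with perforin and granzymes and release interferon-gamma and chemokines. Group 2 innate lymphoid cells (ILC2) depend on the transcription factor Gata3, sense the alarmin interleukin-33 through the receptor encoded by Il1rl1, and make type 2 cytokines and the growth factor amphiregulin. Both kinds are sparse in most tissues. In barrier tissues and heart, ILC2 are known as resident cells, while conventional NK cells also circulate.

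The 6 libraries came from mitral valves of K/B.g7 mice, labelled inflamed, and B.g7 mice, labelled control, at 3, 8 and 25 weeks of age. B.g7 mice carry the MHC class II molecule I-Ag7, which K/B.g7 mice share. The KRN T cell receptor transgene is added in K/B.g7 mice, which form autoantibodies and have inflamed joints and heart valves. Enzymes (collagenase 2 and DNase) freed the cells, erythrocytes were removed by lysis, and sorting kept live singlets for droplet 3′ sequencing. There was 1 library for each genotype and age, and the labels do not give the mice behind it. A test over libraries therefore measured only the spread between these samples, and age is part of that spread. The libraries held 3774 to 20151 quality barcodes and 15196750 to 69152541 UMIs. At 25 weeks, Xist RNA was in 19 and Y-linked RNA in 11 of 70 K/B.g7 members. In B.g7 of that age they were in 22 and 10 of 49. At 8 weeks, they were in 20 and 1 of 24 K/B.g7 members and in 4 and 0 of 5 B.g7 members. The part of sex in the differences between ages was not tested. Between libraries, 289 barcode sequences of quality barcodes recurred, and no sequence was a member in more than 1 library. The doublet caller marked 3 members, all of 25 weeks, 2 from K/B.g7 and 1 from B.g7.

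The members were checked against markers before use. Ncr1, encoding the NK receptor NKp46, was detected in 72 members with 174 UMIs. Klrb1c, encoding NK1.1, was in 34 and the granule gene Nkg7 was in 85. Gata3 was in 30 and Il1rl1 in 29. The label did not cover every member. In all, 20 members held at least 2 UMIs of a dendritic cell marker list that the rule did not use, and 17 of these were among the 24 members of K/B.g7 at 8 weeks. The other 3 were in K/B.g7 at 25 weeks. Il7r, the interleukin-7 receptor chain that many lymphocytes share, was the sole scoring gene in 25 members, of which 17 held the dendritic list.

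The dendritic RNA at 8 weeks sat mainly in cells without the arm-defining genes. Of the 17 members of that library with neither NK receptor nor Gata3 or Il1rl1 RNA, 16 held the dendritic list, and the other member with the list, 1 of the 2 with NK receptor RNA there, stays in that group. These 17 members carried 1138 UMIs of the MHC class II gene H2-Aa, in 15 cells. Cd74, the class II invariant chain, had 2694 UMIs in 16 cells. Ccr7, the receptor that guides dendritic cells to lymph, had 91 UMIs in 8 cells, and the chemokine Ccl17 had 152 UMIs in 8 cells. These cells are called by their leading genes here, and the shares, the T cell comparison and the 25-week values of the Gata3 or Il1rl1 arm are given with and without the members that hold the dendritic list.

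Other lists were detected as well. The T cell list, mainly Trbc1 and Trbc2, reached 2 UMIs in 54 members, which the gate allows because it excludes only Cd3 genes and Trac. The fibroblast list did so in 20 members, the smooth muscle list in 15, and the macrophage list in 37, where Ccr2, also a lymphocyte receptor, contributed. A single NK receptor cell of K/B.g7 at 25 weeks held 222 of the 259 smooth muscle list UMIs in its group. Glial and melanocyte lists were at 0 in all members. In total 108 members held 2 UMIs of some such list, and 45 held none. The part of these RNAs in the results was not tested.

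The limit of 2 UMIs divided graded data. Of the members, 22 had a score of exactly 2 and 131 had 3 or more, while 28 barcodes met every other limit with a score of 1 and stayed outside. Gzma was detected in 18.2% of those at 2, in 58.0% of those at 3 or more and in 14.3% of those at 1. H2-Aa was in 27.3%, 10.7% and 35.7% respectively. These pooled shares mix libraries. In K/B.g7 at 8 weeks, which held most of the H2-Aa cells, the order was reversed for that gene, with 57.1% at 2, 76.5% at 3 or more and 36.4% at 1.

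Members were found mainly at 25 weeks. The K/B.g7 libraries of 3, 8 and 25 weeks had 2, 24 and 70 members and the B.g7 libraries 3, 5 and 49, so 119 of 153, or 77.8%, came from the oldest valves. As a share of quality barcodes, K/B.g7 had 0.0349%, 0.258% and 0.347%, and B.g7 had 0.0795%, 0.0866% and 0.558%. Without the members that held the dendritic list, 7 remained in K/B.g7 at 8 weeks, or 0.0751%, below the 0.0866% of B.g7 at that age. Among the barcodes with Ptprc RNA, the pan-leukocyte marker, members made up 1.30%, 2.09% and 8.49% in K/B.g7 and 6.98%, 1.19% and 7.65% in B.g7. On that scale, leaving out the dendritic list changed the 2.09% to 0.278%, under the 1.19% of B.g7, and the 8.49% to 8.17%. Member depth differed, with a 25-week median of 1157 UMIs for K/B.g7 against 2319 for B.g7. In a sorted suspension, a share of barcodes depends also on how many other cells were recovered.

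Genotype did not separate the shares beyond the spread over ages. The mean share of quality barcodes was 0.213% ± 0.161 (SD, n = 3) in K/B.g7 and 0.241% ± 0.274 (SD, n = 3) in B.g7, a difference of -0.028 percentage points. The exact two-sided permutation test over 3 against 3 libraries gave p = 0.8, and the smallest p it allows is 0.1. It was one of 3 shares tested, and after Benjamini-Hochberg adjustment each p was 1. The share among Ptprc barcodes was 3.96% ± 3.95 (SD, n = 3) against 5.27% ± 3.55 (SD, n = 3), with an exact permutation p of 1. Without the members that held the dendritic list, the K/B.g7 means were 0.148% ± 0.161 (SD, n = 3) and 3.25% ± 4.29 (SD, n = 3), with exact permutation p of 0.5 and 0.8. The groups overlapped in both measures, with and without those members. The order of the genotypes depended on them: K/B.g7 had the higher share of quality barcodes at 8 weeks with them, and the lower share at all 3 ages without them. Paired by age without them, the difference was -0.0938 percentage points, with an exact sign-flip p of 0.25, the smallest that 3 pairs allow. Leaving them out was a choice made after seeing the data, and all were K/B.g7 cells, so it could only lower the K/B.g7 share. The order at 3 and 8 weeks then rested on 2 against 3 and 7 against 5 cells.

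The members fell into arms by which rule genes they carried. An NK receptor arm had RNA of Ncr1, Klrb1c or Klre1 and none of Gata3 or Il1rl1 (80 cells). A Gata3 or Il1rl1 arm had the reverse (34 cells). Another 11 cells carried both and 28 carried neither.

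**Figure D1:**
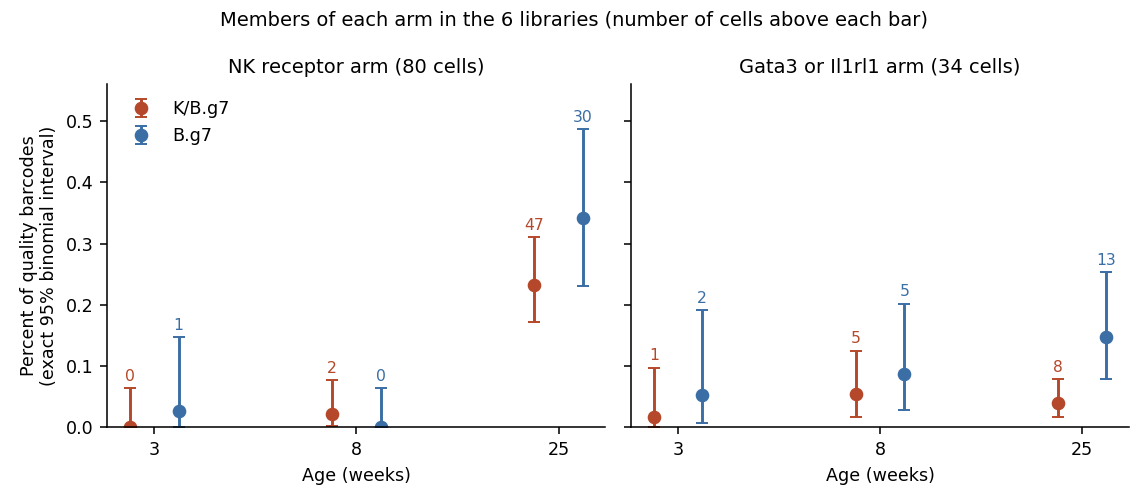
Share of quality barcodes (percent, y axis) in the NK receptor arm (left) and the Gata3 or Il1rl1 arm (right) by age in weeks (x axis, evenly spaced), as points for the K/B.g7 and B.g7 libraries with exact 95% binomial intervals for counting error and the number of cells above each. The NK receptor arm reached 47 and 30 cells at 25 weeks and at most 2 cells in any younger library, whereas the Gata3 or Il1rl1 arm had cells in all 6.

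The NK receptor arm was found mainly at 25 weeks. From youngest to oldest, the NK receptor arm held 0, 2 and 47 K/B.g7 cells against 1, 0 and 30 from B.g7, so 77 of its 80 cells were from 25 weeks. Its share of quality barcodes was 0.233% (exact 95% binomial interval 0.171 to 0.310, as for all shares here covering counting error only) in K/B.g7 and 0.341% (0.231 to 0.487) in the B.g7 library of that age, 25 weeks. The 8-week values were 0.0215% (0.00260 to 0.0775) in K/B.g7, and 0 of 5771 barcodes in B.g7, which allows up to 0.0520%. The Gata3 or Il1rl1 arm had 1, 5 and 8 K/B.g7 cells against 2, 5 and 13 from B.g7. Set against T cells taken by the same limits with at least 2 UMIs of Cd3 genes and Trac, the NK receptor arm had 38.2 and 26.8 cells per 100 T cells at 25 weeks in K/B.g7 and B.g7, and 0.743 and 0 at 8 weeks. At 3 weeks it had 0 and 11.1, where the B.g7 value is 1 cell against 9 T cells. Without the cell that held the dendritic list, the 8-week K/B.g7 value was 0.372. On this scale the Gata3 or Il1rl1 arm was also higher at 25 than at 8 weeks, at 6.50 and 11.6 against 1.86 and 2.92. It had 5 and 22.2 at 3 weeks. The T cells themselves were 2.89% and 2.96% of K/B.g7 and B.g7 quality barcodes at 8 weeks, and 0.610% and 1.27% at 25 weeks. As a share of quality barcodes, the Gata3 or Il1rl1 arm was lower at 25 than at 8 weeks in K/B.g7, at 0.0397% against 0.0537%. In B.g7 it was higher, at 0.148% against 0.0866%. The difference between the arms in their course with age was not tested.

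The age pattern of the NK receptor arm was also present at equal depth. After every barcode was thinned to 1000 UMIs, with shallower ones left out, the rule found 28 NK receptor cells for K/B.g7 and 26 for B.g7 at 25 weeks, and at 8 weeks 2 and 1. The Gata3 or Il1rl1 arm then had 6 cells in each library at 8 and at 25 weeks. As a share of the thinned quality barcodes it was lower at 25 weeks in both genotypes. The values were 0.0696% at 8 and 0.0313% at 25 weeks in K/B.g7, and 0.117% and 0.0705% in B.g7. Of the 25-week members, thinning left out 23 from K/B.g7 and 5 from B.g7, and it also lets a barcode pass the limits on T cell and myeloid genes that it failed at full depth. The NK receptor arm's share of members was 25.2% ± 36.6 (SD, n = 3) in K/B.g7 and 31.5% ± 30.7 (SD, n = 3) in B.g7 (exact permutation p = 1), and both groups ran from 0% to over 60%. Without the members that held the dendritic list the K/B.g7 mean was 28.1% ± 37.1 (SD, n = 3), again with an exact permutation p of 1.

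**Figure D2:**
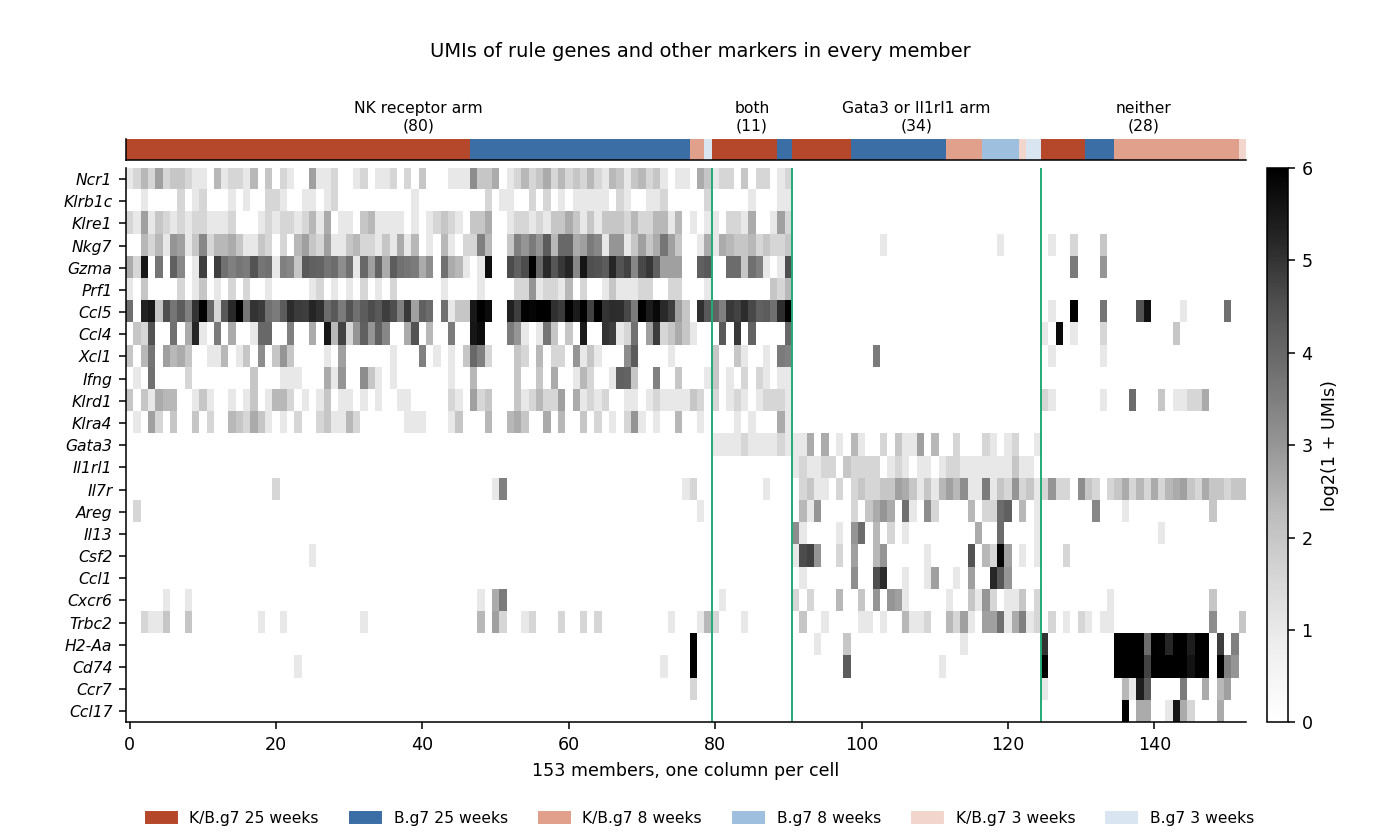
UMIs per cell (log2 of 1 plus UMIs, grey scale) of rule genes and of markers outside the rule, in rows, for all 153 members, one column per cell ordered by arm and library (coloured strip). Gzma and Ccl5 fill the NK receptor arm and are blank in all 34 cells of the Gata3 or Il1rl1 arm, and H2-Aa and Cd74 are dark in most of the 17 K/B.g7 cells at 8 weeks that carry neither set of rule genes.

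The NK receptor arm carried RNA of killing and of chemokines that the rule did not use. Gzma, the serine protease granzyme A (chromosome 13, 113093825 to 113100981, minus strand, build GRCm38), had at 25 weeks 493 UMIs in 42 of 47 K/B.g7 cells, compared with 618 UMIs in 26 of 30 B.g7 cells. The lone 3-week B.g7 cell had 19 Gzma UMIs and a single K/B.g7 cell of the 2 at 8 weeks had 17. Among NK receptor cells with at least 1000 UMIs, each thinned to 1000, Gzma was in 77.8% and 85.7%. Over all cells of the arm before thinning it was in 89.4% and 86.7%. The latter values include the shallower cells, so the difference is not an effect of thinning alone. Fibroblast barcodes of the same libraries, which should lack the gene, had Gzma in 0.377% and 0.152%, with median depths of 2903 and 5548 UMIs against 1049 and 2165 in the NK receptor cells.

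Ccl5, a chemokine for T cells and monocytes, was the most abundant of these transcripts. It had 939 UMIs in 45 K/B.g7 cells, compared with 1253 UMIs in 28 B.g7 cells, and was in 1.01% and 0.659% of fibroblast barcodes. Prf1, encoding perforin, had 27 UMIs in 17 cells and 39 UMIs in 19 cells. Nearly every NK receptor cell of both genotypes thus carried Ccl5, and the lower-abundance perforin RNA was seen in fewer of them. Ifng, the interferon-gamma gene, had 49 UMIs in 15 cells and 72 UMIs in 13 cells. The chemokine gene Ccl4 had 319 UMIs in 27 cells and 299 in 21.

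RNA of receptors and regulators found in conventional NK cells was detected in the NK receptor arm, each gene in part of its cells. Klra8, the activating receptor Ly49H, had 51 UMIs in 20 K/B.g7 cells and 35 in 13 B.g7 cells. Klra4 (Ly49D), also activating, had 58 in 25 and 46 in 14. Over all 80 cells of the arm, the T-box factor gene Eomes had 22 UMIs in 19 cells and its relative Tbx21 had 26 in 19 cells. Tyrobp, the adaptor DAP12 that signals for these receptors, had 308 UMIs in 69 cells. Klra genes are near-identical copies of each other, so their individual counts depend on how reads were assigned. Cma1, listed as a mast cell protease, had 38 UMIs in 22 NK receptor cells, while the mast cell genes Cpa3 and Tpsb2 were at 0 in all 80.

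The Gata3 or Il1rl1 arm had none of the killing RNA. Gzma, Gzmb, Prf1, Ccl5, Ccl4, Ccl3, Ifng, Klrd1, Klra4, Klra8, Eomes and Tbx21 were at 0 in all 34 cells, with 100213 UMIs in total. At that depth 3 counts, the limit a count of 0 allows, are 29.9 CPM (counts scaled to a common library total). Gata3 had 44 UMIs in 19 cells and Il1rl1 43 in 29, as selected. Il7r, part of the score, was in 31 of the 34.

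Type 2 cytokine RNA was found in this arm. Areg, encoding amphiregulin (chromosome 5, 91139599 to 91148432, plus strand), had 4, 4 and 12 UMIs from the youngest to the oldest K/B.g7 library, against 1, 35 and 46 for B.g7. The positive cells were 1 of 1, 1 of 5 and 3 of 8 for K/B.g7, against 1 of 2, 4 of 5 and 9 of 13 for B.g7, so Areg was detected in every library. At 25 weeks 2 of the 8 K/B.g7 cells held the dendritic list, and without them Areg had 5 UMIs in 2 of 6 cells there. Il13, the cytokine of mucus and alternative activation (chromosome 11, 53631324 to 53634702, minus strand), had in the same order 0, 5 and 10 UMIs for K/B.g7 against 1, 14 and 28 for B.g7, in 11 cells in all. Fibroblast barcodes at 25 weeks had Areg in 0.126% and 0.608% and Il13 in 0.0210% and 0% of K/B.g7 and B.g7 barcodes. Il5, the eosinophil growth factor, had 18 UMIs in 9 cells.

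Other secreted factors were uneven between cells. Csf2, the growth factor GM-CSF, had 1, 21 and 59 UMIs from the youngest to the oldest K/B.g7 library, against 1, 69 and 18 for B.g7, and a single B.g7 cell at 8 weeks held 57 of the 69. Ccl1, a chemokine for Ccr8 bearing cells, had 0, 7 and 1 UMIs for K/B.g7 against 0, 63 and 72 for B.g7. Both were therefore high in a few cells of some libraries and not in the arm as a whole. Calca, encoding the neuropeptide CGRP, had 34 UMIs in 8 cells. Cxcr6, a chemokine receptor of tissue-resident lymphocytes, had 53 UMIs in 17 cells and was seen in all 6 libraries.

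Other genes of innate lymphoid cells were sparse. The ILC2-linked factor Rora had 28 UMIs in 14 cells of the Gata3 or Il1rl1 arm, and the arginase gene Arg1 had 16 in 11. The interleukin-25 receptor Il17rb had 7 UMIs in 5 cells, and Ptgdr2 and Nmur1 were at 0. The cytokine genes Il22 and Il17a were at 0 in all 153 members. Trbc2, the T cell receptor beta constant gene, had 72 UMIs in 21 of the 34 cells, more cells than the 19 of 80 in the NK receptor arm. At 25 weeks it was in 2 of 8 and 7 of 13 cells of the arm, and in 0.524% and 0.709% of fibroblast barcodes. At 3 and 8 weeks it was in every cell of the arm except a K/B.g7 cell of 8 weeks with 650 UMIs. Counts there reached 10 in the K/B.g7 cell of 3 weeks and 13 in a B.g7 cell of 8 weeks. Most Trbc2 UMIs of the arm thus came from its younger cells. The part of T cell RNA in the arm's values was not tested.

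**Figure D3:**
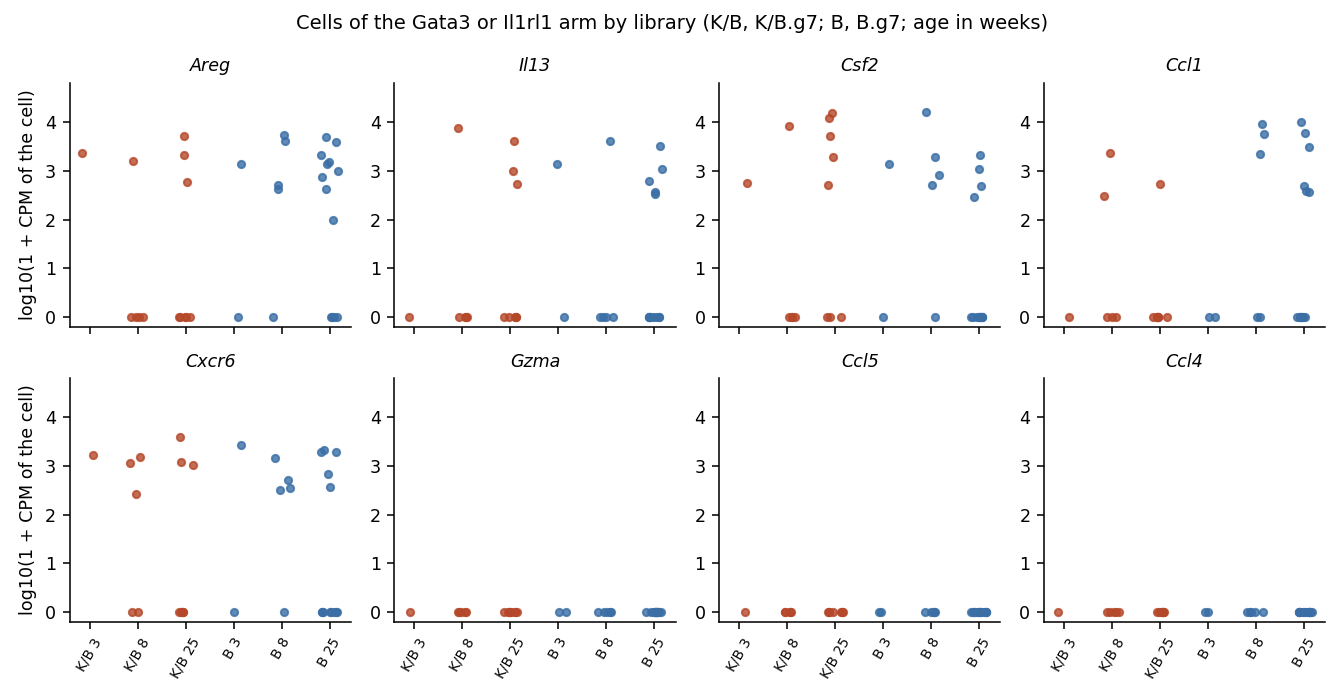
Level in each of the 34 cells of the Gata3 or Il1rl1 arm (one point per cell, log10 of 1 plus the cell's CPM) of 8 genes outside the rule, by library on the x axis (genotype and age in weeks). Areg was in 9 of 13 B.g7 cells at 25 weeks, and Gzma, Ccl5 and Ccl4 lie at 0 in every cell.

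The 11 cells with both sets of rule genes carried NK effector RNA and no type 2 cytokine RNA. All were of 25 weeks, 9 from K/B.g7 and 2 from B.g7, and Gata3 was the shared gene in each, at 13 UMIs in all, while Il1rl1 was at 0. Ccl5 was in 11 of 11 with 301 UMIs and Gzma in 8 with 78. Areg, Il13 and Csf2 were at 0 in them, where 3 counts are 150.0 CPM. The 28 cells with neither set came mainly from K/B.g7 at 8 weeks, with 17 cells, and carried Gzma in 2 and Areg in 3.

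RNA of genes linked to 1 arm was also seen in cells of the opposite arm. Of the 80 NK receptor cells, 10 had a UMI of Areg, Il13, Csf2, Ccl1, Rora or Il17rb. Most of the 10 carried Rora, which encodes a transcription factor and no effector. Areg had 1 UMI in a K/B.g7 cell at 8 weeks and 2 in a K/B.g7 cell at 25 weeks. Csf2 had 1 UMI in another K/B.g7 cell at 25 weeks. In the Gata3 or Il1rl1 arm 1 B.g7 cell at 25 weeks held 11 UMIs of Xcl1, a chemokine gene of NK cells. These genes were picked after their values were seen.

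The arms were then compared gene by gene within each 25-week library, where they shared digestion, sort and sequencing. With 8 Gata3 or Il1rl1 cells from K/B.g7 and 13 from B.g7 there was no test. Over 1450 genes outside the rule with at least 20 UMIs, 140 (9.66%) were at least 2-fold higher in the NK receptor arm in both libraries and 47 (3.24%) were at least 2-fold lower, 12.9% in all. Of the 26 genes of the NK receptor list, 13 reached that minimum, each through the NK receptor arm, and all 13 were higher there, which the minimum itself favours. Of the cytotoxic list 7 of 9 measured genes were higher, all but Srgn and Lamp1. The type 2 and repair list had 4 of 5 lower, Il13, Csf2, Areg and Ccl1, of which Ccl1 rested on 1 UMI in K/B.g7. The type 1 list, which also holds Csf2, had the other 5 of its 6 measured genes higher. The minimum favours such calls in these lists too. Gzma, Prf1, Ccl5 and Ccl3 had 0 UMIs in the Gata3 or Il1rl1 arm and reached it only through the NK receptor arm. Il13 reached it only through the Gata3 or Il1rl1 arm. These lists overlap in function with the genes that set the arms, and their counts describe the arms.

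Among single genes, the chemokine Ccl5 was at least 48.6-fold higher in the NK receptor arm in K/B.g7 and at least 334-fold higher in B.g7, against the limit of 3 counts per library set by no UMI in the other arm. Gzma was at least 25.5-fold higher in K/B.g7. In the other direction, Cxcl2, a neutrophil chemokine, had 6 and 60 UMIs in the Gata3 or Il1rl1 arm and 0 in both NK receptor arms, so at least 12.9-fold and 25.0-fold higher. Il13 was at least 21.5-fold and 11.7-fold higher there. The heparan sulfate enzyme gene Hs3st1 had 6 and 14 UMIs against 0 and 0. Nfkbia, encoding an inhibitor of NF-kB, was at 3560 CPM and 1557 CPM in the Gata3 or Il1rl1 arm, and at 340.1 CPM and 322.1 CPM in the NK receptor arm. Gadd45b, a stress-response gene, was at 3104 CPM and 3938 CPM against 99.2 CPM and 542 CPM. Of the immediate early and dissociation list, 3 of 22 measured genes were lower in the NK receptor arm, Nfkbiz, Nfkbia and Ppp1r15a, and none was higher. The part of tissue digestion in these values was not tested.

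The promoters of Gzma and Il13, leading genes of the opposite arms, show how the motif search was scored. Windows run from 250 bases before to 50 after the RefSeq start in build GRCm38.p6, both on the minus strand, written 5′ to 3′ along the gene with matches in capitals. The motifs searched on both strands were TGTGGT (Runx), GTGTGA (T-box) and AGATAA (the Gata family), in the 9 of 12 NK receptor genes and 10 of 12 Gata3 or Il1rl1 genes with a window.
Gzma (chr13:113100932-113101231): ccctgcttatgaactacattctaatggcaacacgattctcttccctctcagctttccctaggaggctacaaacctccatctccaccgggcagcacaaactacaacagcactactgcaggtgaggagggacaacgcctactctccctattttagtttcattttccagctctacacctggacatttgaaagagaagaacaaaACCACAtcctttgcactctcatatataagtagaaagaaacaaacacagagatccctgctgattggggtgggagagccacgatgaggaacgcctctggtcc
Il13 (chr11:53634653-53634952): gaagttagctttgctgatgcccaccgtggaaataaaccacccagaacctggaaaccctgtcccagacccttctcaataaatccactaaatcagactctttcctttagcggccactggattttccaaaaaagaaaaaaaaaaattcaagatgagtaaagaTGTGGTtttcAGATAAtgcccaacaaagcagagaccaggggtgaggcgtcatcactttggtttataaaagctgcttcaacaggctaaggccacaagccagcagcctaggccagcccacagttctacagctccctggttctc
Gzma held the reverse of TGTGGT once, and Il13 held both TGTGGT and AGATAA. Of the NK receptor windows, TGTGGT was in 4 of 9, and of the other set in 1 of 10, against 16.9% of 27025 promoters. AGATAA was in 0 of 9 and in 2 of 10, Csf2 and Il13, against 11.4%. GTGTGA was in 2 of 9 and 0 of 10, against 14.4%. A match is a description of letters in a window.

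Genotype was compared within the NK receptor arm at 25 weeks, the only age with enough cells. The sums covered 70577 UMIs for K/B.g7 against 68305 for B.g7. With 1 library each there was no test, and intervals are exact for counting error only. Of 980 genes with at least 20 UMIs, 88 (8.98%) were at least 2-fold higher and 67 (6.84%) at least 2-fold lower in K/B.g7, or 15.8% apart, with a median log2 ratio of -0.05.

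**Figure D4:**
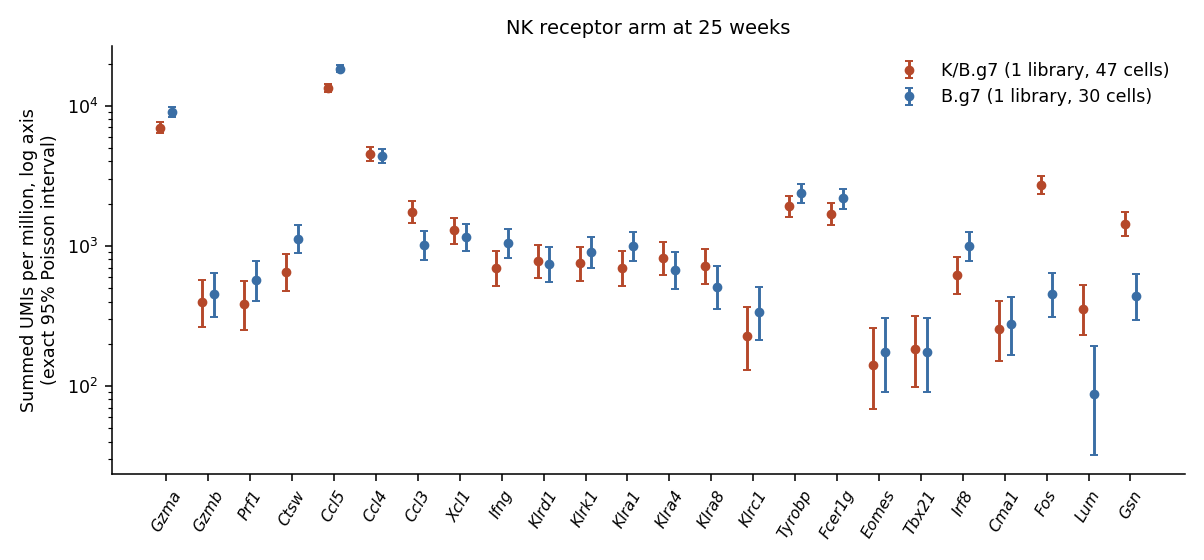
Level in the NK receptor arm at 25 weeks (CPM of the summed UMIs, log axis) in K/B.g7 (47 cells) and B.g7 (30 cells), 1 library each, for granule, chemokine, receptor and other genes, with exact 95% Poisson intervals for counting error. Ccl5 and Gzma lie higher in B.g7, Ccl3, Fos, Lum and Gsn lie higher in K/B.g7, and the intervals of Klra4 and Klra8 overlap. The intervals leave out the spread between cells, and 1 K/B.g7 cell held 14.7% of that library's UMIs in the arm.

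Most NK effector levels differed by less than 2-fold between the genotypes. Gzma was 6985 CPM in K/B.g7 and 9048 CPM in B.g7, a ratio of 0.772 (0.684 to 0.870), and Ccl5 was 13305 CPM and 18344 CPM, a ratio of 0.725 (0.666 to 0.790). Giving each cell the same weight moved the log2 differences from -0.37 to -0.09 for Gzma and from -0.46 to -0.21 for Ccl5. Without predicted doublets they were -0.14 and -0.25. Among the K/B.g7 cells, 1 held 10381 of the 70577 UMIs (14.7%) but 5 of Gzma and 13 of Ccl5. Another held 7126 UMIs, with 2 and 0. Without the cell of most UMIs in each library, Gzma was 8107 CPM in K/B.g7 and 10013 CPM in B.g7. Ccl5 was then 15383 CPM and 19589 CPM. The ratio intervals were 0.718 to 0.913 for Gzma and 0.720 to 0.856 for Ccl5. That setting was chosen after seeing the data. The size of both differences thus depended on few cells. Ccl3, a macrophage chemoattractant, was 1757 CPM and 1010 CPM, a ratio of 1.74 (1.29 to 2.37). Prf1 had a ratio of 0.670 (0.394 to 1.12), Klra8 1.41 (0.899 to 2.23) and Ccl4 1.03 (0.879 to 1.21). Of the cytotoxic list 1 of 9 measured genes, Lamp1, was 2-fold higher and none lower, with a median log2 ratio of -0.37. The NK receptor list had 0 of 13 higher and 1 lower, Klrb1b, with a median of 0.23.

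Most genes past 2-fold were outside these lists. The mRNA binding protein gene Ewsr1 was 241 CPM in K/B.g7 and 43.9 CPM in B.g7, and the tetraspanin gene Cd37 was 56.7 CPM and 307 CPM. Tnfrsf18, encoding the costimulatory receptor GITR, was 70.8 CPM and 264 CPM. The immediate early gene Fos had 192 UMIs for K/B.g7 against 31 for B.g7, but 1 cell held 47.9% of the K/B.g7 UMIs and the cell-equal log2 difference was 1.22, from 2.56. Lum and Gsn, expressed in fibroblasts, were higher in K/B.g7, Lum at 354 CPM against 87.8 CPM and Gsn at 1431 CPM against 439 CPM. The fibroblast marker list in this arm was at 723 CPM in K/B.g7 and 146 CPM in B.g7. The part of stromal RNA in these ratios was not tested.

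Within the Gata3 or Il1rl1 arm at 25 weeks the sums were small, 10954 UMIs over 8 cells and 54592 over 13, and a single B.g7 cell held 20774 of the latter, or 38.1%. Of 392 genes with at least 20 UMIs, 44 (11.2%) were at least 2-fold higher in K/B.g7 and 82 (20.9%) lower, 32.1% apart. Csf2 was 5386 CPM in K/B.g7 and 330 CPM in B.g7, a ratio of 16.3 (9.50 to 29.4), and 1 cell held 44.1% of the K/B.g7 UMIs. At 8 weeks the same gene was 1627 CPM in K/B.g7 and 3814 CPM in B.g7. The order of the genotypes thus differed between ages. Areg was 1095 CPM and 843 CPM at 25 weeks, a ratio of 1.30 (0.627 to 2.49), and Il13 was 913 CPM and 513 CPM, a ratio of 1.78 (0.771 to 3.78). Neither ratio had an interval clear of 1, and neither kept its direction throughout. Without the cell of most UMIs in each library, a choice made after seeing the data, the ratio of Areg was 1.02 (0.491 to 1.97) and that of Il13 was 0.357 (0.0406 to 1.46), while Csf2 stayed at 18.1 (9.62 to 37.1). The split of genes 2-fold apart then turned, with 63 higher in K/B.g7 and 47 lower. Without the 2 K/B.g7 cells that held the dendritic list, Areg was 564 CPM against 843 CPM, a ratio of 0.669 (0.208 to 1.68). Il13 was then at a ratio of 2.20 (0.953 to 4.66) and Csf2 at 17.8 (10.2 to 32.3). Of 8 measured proliferation genes, 7 were lower in K/B.g7, where 1 B.g7 cell carried all 7 Mki67 UMIs of the arm.

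Members were set against T cells of the same libraries, with UMIs summed per library and the library as a block (edgeR quasi-likelihood, false discovery rate 0.05). Because each set was gated on its own counts, a gene that follows the gate genes had to differ, so the calls describe the 2 sets. The libraries with at least 20 of each were K/B.g7 at 8 and 25 weeks and B.g7 at 25 weeks. Of 2997 genes, 19 (0.634%) were called, 11 higher in members (0.367%) and 8 lower (0.267%). Tyrobp was higher by 3.79 ± 0.48 (SE, log2), Fcer1g, the Fc receptor gamma chain, by 2.99 ± 0.39 (edgeR adjusted p = 0.0526 without predicted doublets), and the transcription factor gene Lef1 was at -3.73 ± 0.50. H2-Eb1, a class II gene, was higher by 6.30 ± 0.91, with 1302 of its member UMIs from K/B.g7 at 8 weeks, against 66 and 1 from the 25-week K/B.g7 and B.g7 libraries. Without K/B.g7 at 25 weeks no gene was called, with 173 genes at an unadjusted p under 0.05, and without K/B.g7 at 8 weeks 143 were.

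With the members that held the dendritic list left out, a choice made after seeing the data, only the 25-week libraries remained. Then 142 of 2727 genes (5.21%) were called, 88 higher in members (3.23%) and 54 lower (1.98%). The fits share 14 called genes, all with the same sign. Klra8 had 102 UMIs in members and 0 in T cells, at least 69.8-fold higher against 3 counts over the group. Klra4 had 112 against 1. Irf8, a factor of myeloid and NK cells, was higher by 6.86 ± 0.42 (SE, log2) and Ccl3 by 5.64 ± 0.35. Il13 had 38 against 2 UMIs and Csf2 73 against 2. Perforin RNA also divided the sets, Prf1 being higher by 3.58 ± 0.36, while Ccl5 at 0.54 ± 0.38 and Ifng at 0.62 ± 0.22 did not pass.

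By list at 25 weeks, 13 of 14 NK receptor genes tested were higher, with a median log2 difference of 3.27 beside -0.02 over all genes tested. The cytotoxic list had 6 of 10 higher, with a median of 1.92. The type 2 and repair list had 3 of 5 higher. All 6 T cell markers tested were lower. Cd163l1, a gene of gamma-delta T cells, had 0 UMIs in members and 113 in T cells, at least 18.4-fold lower. Ccr9, the gut and thymus homing receptor, had 0 and 92, at least 14.9-fold lower. Tcf7, a factor of T cell development, had 10 UMIs in members and was lower by log2 values of -3.09 ± 0.36, and Cd8a had 1 UMI against 110.

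**Figure D5:**
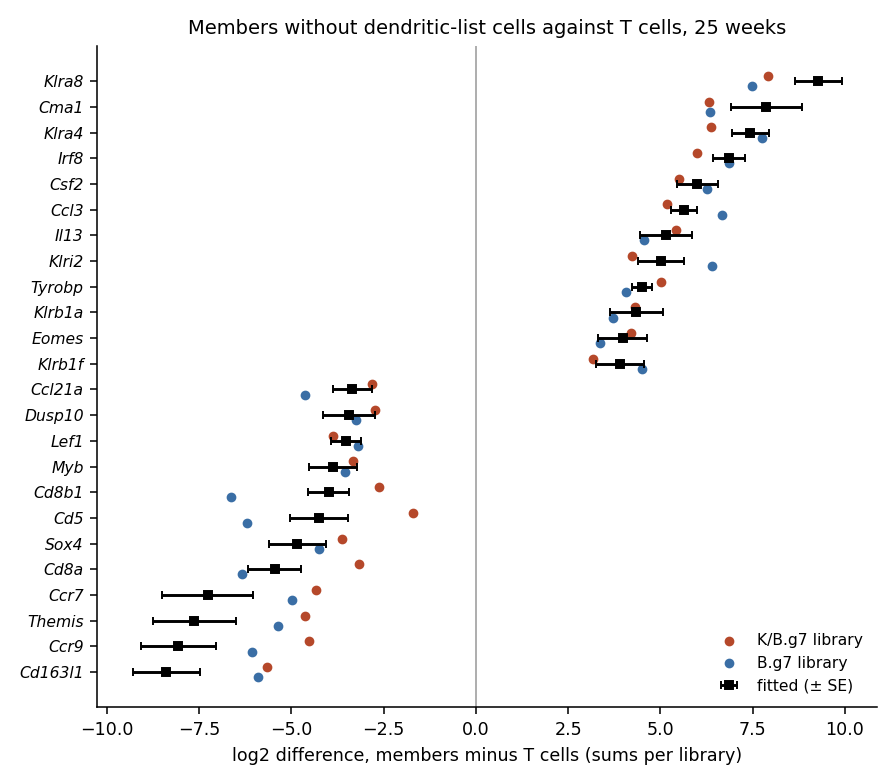
Log2 difference between members and T cells at 25 weeks (x axis) for the 12 named genes in each direction (y axis), after leaving out members with the dendritic list: fitted value with its SE (black) and the difference in the K/B.g7 and the B.g7 library (coloured points). All 24 genes have the same sign in both libraries, and the fitted values of genes with no UMI in one of the sets, such as Klra8 and Cd163l1, depend on the prior count.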

How the data were processed

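Single-cell RNA of 6 mitral valve libraries was analysed from UMI counts per gene and barcode, deposited by the authors as raw, unnormalized matrices. Per the submitters' processing notes they came from Cell Ranger 3.1.0 with mm10. Per the labels' protocols, live single cells were sorted and libraries were made with a 3′ kit. Members and lists were chosen with earlier results of these data known. Each library is 1 sample, and cells were never taken as replicates. Shares were compared with exact permutation tests. Counts of members and of T cells (Cd3e, Cd3d, Cd3g and Trac at least 2 UMIs, Rag1 and Dntt at 0) were summed per library and fitted with edgeR 4.0.16 (TMM, filterByExpr, library as a block) in R 4.3.3, after a test on simulated data. DESeq2 1.42.0 was an alternative. The block rests on members and T cells sharing a library. Ages were shared between genotypes, and the age in the labels paired libraries for the sign-flip test. Genes were named in the comparison with T cells if they passed a false discovery rate of 0.05 with 1 sign in every library. Of these, the largest in each direction were taken. Other genes there came from the gene lists, among them Ccl5 and Ifng, which did not pass. Genes named between arms or genotypes, for which there was no test, followed a rule of size set after seeing the data. Doublets were scored with the Scrublet code in scanpy 1.11.5 at 0.8% per 1000 barcodes and kept. Models of members by genotype or age, and of arms over libraries, were not run, because too few libraries held 20 members or 10 cells of each arm. Gene positions are from GENCODE vM21.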

Additional observations from a re-analysis of the deposited data

Results flagged for a closer look

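The difference in member share between K/B.g7 and B.g7 had opposite signs at 2 ages. At 8 weeks K/B.g7 was higher by 0.171 percentage points of quality barcodes, and at 25 weeks the difference was -0.210. There was 1 library for each genotype and age, so this difference between ages was not tested. At 8 weeks, 17 of the 24 K/B.g7 members held at least 2 UMIs of the dendritic cell list, and without them K/B.g7 stood at 0.0751% and B.g7 at 0.0866%, so the signs were then no longer opposite.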

How the results depend on the processing

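With 1 exception, no genotype comparison of shares reached the smallest p its design allows under any setting tried. The exception was the member share of quality barcodes, paired by age and without members that held the dendritic list. K/B.g7 was lower at every age there, with an exact sign-flip p of 0.25, the smallest possible. That setting was chosen after seeing the data, and it left out K/B.g7 cells only, so it could only lower K/B.g7. Leaving out 1 library moved the member share difference between -0.109 and 0.130 percentage points, that among Ptprc barcodes between -3.58 and 0.0201, and that of the NK receptor arm between -27.4 and 8.49, so the sign of each rests on single libraries. Without members that held any other type's list, the NK receptor arm difference was 17.3. Paired by age as a replicate block, the differences stayed at -0.028, -1.31 and -6.36, with exact sign-flip p of 0.75, 1 and 1, where the smallest possible is 0.25. Of genes called between members and T cells, DESeq2 gave 33 in place of 19, no filter on low counts 253 of 14922, no predicted doublets 11 and no replicate block 7. Leaving out 1 library gave 0 to 143, and leaving out members with the dendritic list, chosen after seeing the data, gave 142. RLE factors gave 19 and a mean of at least 50 CPM gave 26. The cause of these changes was not tested. Counts of genes 2-fold apart stayed within 1.5 times under equal weight per cell (248, 152 and 106 for the arms, the NK receptor arm and the Gata3 or Il1rl1 arm), without doublets (207, 163 and 126), without members with the dendritic list (200, 155 and 145) and without the cell of most UMIs in each arm and library (234, 147 and 110), all 4 chosen after seeing the data. The comparison with T cells without members that held any other type's list, and the models of members by genotype, age and arm, were not run, since too few libraries kept the minimum of cells. Depth was a limit: with 10954 UMIs in the smaller Gata3 or Il1rl1 arm at 25 weeks, genes of low abundance were not detectable.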
